A study of Mus musculus with 20 samples.

Results

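The genes described here are 37 general markers of endothelial cells, the cells that line blood vessels, and they were measured in the liver of mice given benzo(a)pyrene (BaP), a polycyclic aromatic hydrocarbon formed when organic matter burns. The genes were taken from a list by name: each probe was matched by its transcript accession to the listed symbol or an older synonym, and the probe of highest mean intensity stood for a gene. Of the 37 genes, 36 had such a probe, out of 16535 genes named on the array, and 35 had a probe above the background limit (present). Mmrn1 had no probe matched in this way, so its expression was not analysed here, and Erg, an ETS transcription factor of endothelial cells, had a probe that was not present. The 20 animals were male Muta™Mouse, a transgenic line (strain 40.6) that carries lacZ reporter copies for mutation scoring, aged 25 weeks, with 5 animals in each of 4 groups. Controls (replicates 1 to 5) received olive oil, the vehicle, and the exposed mice received BaP in olive oil by gavage on 28 days, as a low dose of 25 mg/kg/day (replicates 6 to 10), a middle dose of 50 (replicates 11 to 15) and a high dose of 75 (replicates 16 to 20). All were killed 3 days after the last dose. Liver RNA (Cyanine 5) was hybridized on each array against a common universal reference RNA (Cyanine 3), made from 11 mouse cell lines. A level below is therefore a log2 ratio, liver over reference, and a fold change is the log2 difference between an exposed group and the controls.

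Endothelial cells hold their identity through a small set of transcription factors of the ETS, SOX and GATA families, and they are joined by cell contacts built from VE-cadherin, claudins and adhesion molecules. Vascular endothelial growth factor and angiopoietin receptors on their surface control growth and permeability, and Notch signaling sets arterial against venous character. In the liver most of the endothelium lines the sinusoids, where it is fenestrated and scavenges waste from blood, while the central veins carry endothelium that releases Wnt ligands to the hepatocytes around them. RNA from a whole piece of liver mixes these cells with hepatocytes, macrophages and stellate cells, so more endothelial cells and more RNA per endothelial cell cannot be told apart in these data.

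The labels name both liver and lungs as the tissue, and the study describes liver. Hepatocyte genes (Alb, Ttr, Cyp2e1 and others) averaged between 4.31 and 5.54 on the log2 ratio scale across the arrays, whereas lung epithelium genes averaged between -0.29 and 0.27. Of the 5 lung genes tested, Ager and Scgb1a1 were well above background in 0 and 1 of the 5 control arrays, Sftpa1 and Sftpd in 4 each and Aqp5 in 5. Sftpd had an estimate of 1.19 at 75 mg/kg/day (limma adjusted p 0.0688), with all 5 arrays above all controls, and the other 4 lay between -0.18 and 0.15. Within groups, r between arrays ran from 0.931 to 0.983 over probes, and 51.9% to 67.5% of spots were well above background. Control replicate 4 stood apart at 67.5%, against 51.9% to 54.3% for the other 4 controls. This share was 55.5% to 61.0% at 25 mg/kg/day, 52.5% to 62.4% at 50 mg/kg/day and 53.0% to 61.4% at 75 mg/kg/day. Most exposed arrays thus lay above those 4 controls, and the part of this in the fold changes was not tested. The arrays lay on 6 slides, 4 each on slides 1, 2, 3 and 6 and 2 each on slides 4 and 5. Controls lay at positions 1 and 2 of a slide (only replicate 2 at position 2), the 25 mg/kg/day arrays at position 2, the 50 mg/kg/day arrays at positions 3 and 4 (only replicate 13 at position 4) and the 75 mg/kg/day arrays at position 4. No control shared a position with an array of the middle or high dose. For these doses the difference from control and the position on the slide therefore cannot be told apart. At 25 mg/kg/day only control replicate 2 shared the position of the exposed arrays, so dose and position can hardly be told apart there either.

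Most of the endothelial genes had higher estimates in exposed liver, and a few passed the test at the highest dose. At 75 mg/kg/day, 3 of the 35 were called higher (Mmrn2, Icam2 and Rasip1) and 0 lower, at an adjusted p under 0.05 by limma with Benjamini-Hochberg adjustment over 27346 present probes and a fold change over 1.5. Over all present probes, 0.132% were called higher and 0.00366% lower at this dose. At 25 and at 50 mg/kg/day limma called 0 members in either direction, and 0% of all probes. At an unadjusted p under 0.05, 13 members were higher at the low dose (4.18% of all probes), 13 at the middle dose (3.75%) and 20 at the high dose (6.52%). The counts of lower members were 1, 0 and 1 (3.62%, 2.94% and 4.69% of all probes), and in both cases the gene was Lmo2. A linear trend with dose was called rising for 4 members (Mmrn2, Icam2, Rasip1 and Notch4, 0.154% of all probes) and falling for 0 (0.00366%). The trend was called at a limma adjusted p under 0.05 alone, without the fold limit.

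Estimates were above 0 for 27 of the 35 members at the low dose, 27 at the middle dose and 29 at the high dose, against 50.3%, 49.2% and 50.6% of all probes. The median log2 fold change of the members was 0.21 at 25, 0.27 at 50 and 0.42 at 75 mg/kg/day, beside medians of 0.001, -0.003 and 0.002 over all present probes. All 5 exposed arrays lay above all 5 controls for 3 members at the low dose (0.559% of all probes), 6 at the middle dose (0.527%) and 7 at the high dose (0.936%): Mmrn2, Icam2, Rasip1, Ushbp1, Notch4, Robo4 and Ramp2. The 3 doses were compared with the same 5 control animals, so these counts share their controls.

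**Figure D1:**
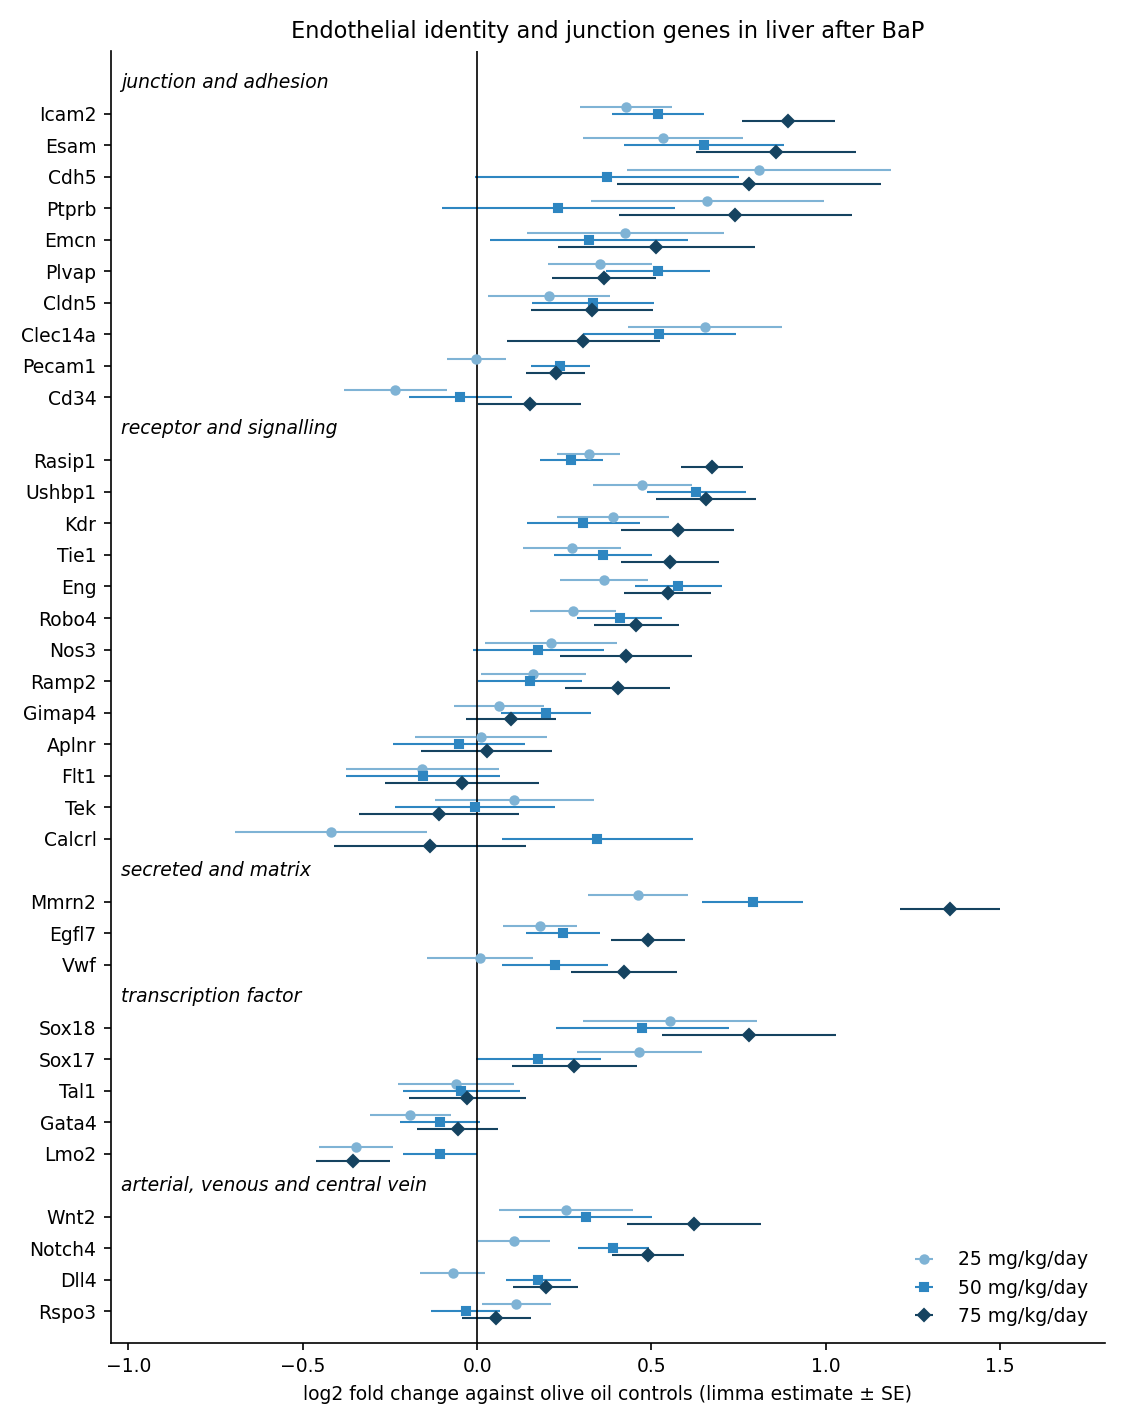
Log2 fold change against the olive oil controls (x axis, limma estimate with its SE) for the 35 present members, grouped by role (y axis), at 25 (circles), 50 (squares) and 75 mg/kg/day (diamonds), 5 arrays per group. Mmrn2 lay farthest to the right, at 1.36 at 75 mg/kg/day, and 29 of the 35 estimates at that dose were above 0.

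Among the secreted and matrix members, Mmrn2 (multimerin 2), an extracellular matrix protein deposited by endothelial cells that binds vascular endothelial growth factor, had the largest change of all members at 75 mg/kg/day. Its log2 ratio in the controls was 5.19, 4.60, 5.12, 5.23 and 4.99. It was 5.59, 5.55, 5.47, 5.52 and 5.30 at the low dose and 5.98, 5.90, 5.55, 5.48 and 6.16 at the middle dose. At 75 mg/kg/day it was 6.22, 6.62, 6.50, 6.06 and 6.52. Every exposed array lay above every control, and 4 of the 5 arrays at 75 mg/kg/day lay above every array at 50 mg/kg/day. Mmrn2 was 2.56-fold higher at 75 mg/kg/day (log2 1.36, SE 0.14, limma adjusted p 1e-04), which ranked 26 among 27346 probes. The estimates at the lower doses were 0.46 (SE 0.14, adjusted p 0.636) at 25 and 0.79 (SE 0.14, adjusted p 0.146) at 50 mg/kg/day, and the trend was 0.44 (SE 0.04) per step of 25 mg/kg/day with an adjusted p of 1.71e-05.

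Egfl7, a secreted factor of growing vessels, had estimates of 0.18, 0.25 and 0.49 in order of dose, with an adjusted p of 0.0715 at 75 mg/kg/day and 0.0568 for the trend. Vwf (von Willebrand factor), the clotting protein stored by endothelium of larger vessels, had estimates of 0.01, 0.22 and 0.42, and its other probe gave 0.01, 0.16 and 0.39. Neither gene passed the adjusted test at any dose.

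**Figure D2:**
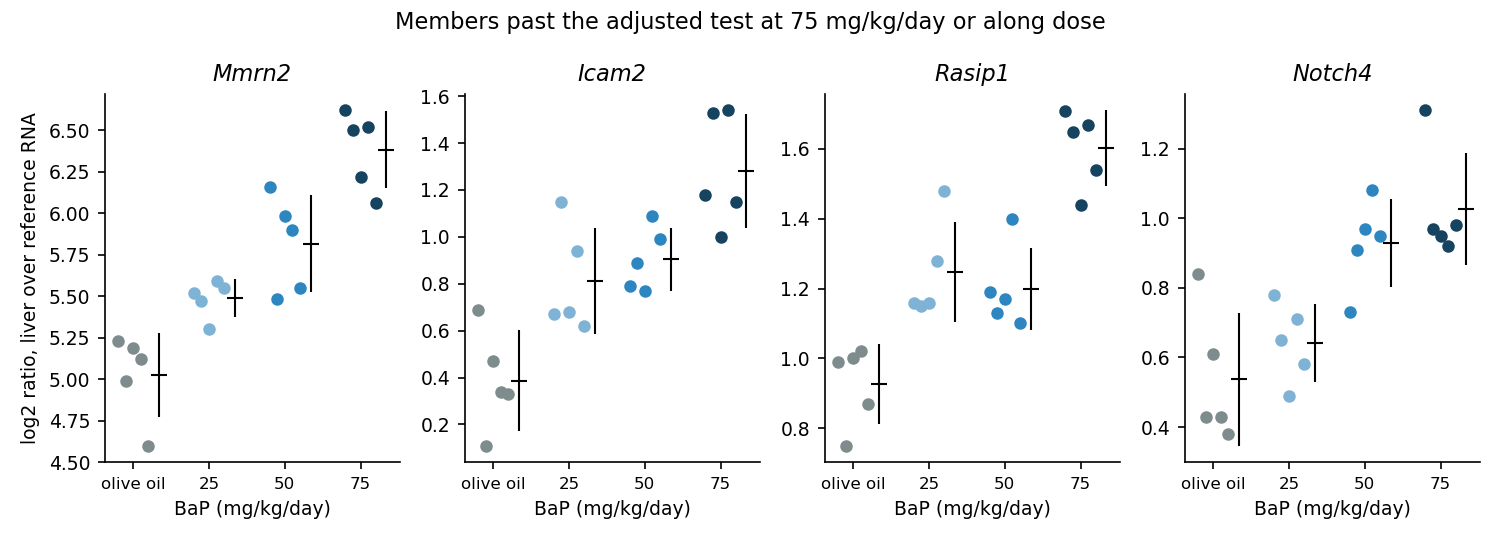
Log2 ratio of liver over reference RNA (y axis) in each of the 20 arrays for Mmrn2, Icam2, Rasip1 and Notch4, by BaP dose (x axis, mg/kg/day). Each point is 1 animal, the bar beside the points is the mean ± SD (n = 5), and the y axes differ between panels and do not start at 0. At 75 mg/kg/day all 5 arrays of each gene lay above all 5 controls.

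Of the 10 junction and adhesion members, all 10 had estimates above 0 at 75 mg/kg/day, with a median of 0.44, and 1 was called. This was Icam2, an adhesion molecule of endothelial cell contacts that binds leukocyte integrins. Its log2 ratio was 0.47, 0.33, 0.34, 0.69 and 0.11 in the controls, and 0.94, 0.62, 1.15, 0.67 and 0.68 at 25 mg/kg/day. It was 0.77, 1.09, 0.99, 0.89 and 0.79 at the middle dose and 1.00, 1.18, 1.53, 1.15 and 1.54 at the high dose. The controls overlapped the 25 mg/kg/day arrays and lay below all arrays at 50 and 75 mg/kg/day. Icam2 was 1.86-fold higher at 75 mg/kg/day (log2 0.89, SE 0.13, limma adjusted p 0.00325), with estimates of 0.43 (adjusted p 0.636) at 25 and 0.52 (adjusted p 0.481) at 50 mg/kg/day and an adjusted p of 0.00303 for the trend.

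Cdh5 (VE-cadherin), the defining protein of endothelial adherens junctions, spanned 2.15 to 4.72 in the controls and 3.62 to 5.21 at 75 mg/kg/day. Its estimate of 0.78 (SE 0.38) had adjusted p 0.452, and the difference was not larger than the spread between animals. The second Cdh5 probe gave 0.22, 0.51 and 0.33 in order of dose, against 0.81, 0.37 and 0.78 for the brighter probe. Ptprb (VE-PTP), a phosphatase that acts on VE-cadherin and the Tie2 receptor, had an estimate of 0.74 (adjusted p 0.416), and Esam, an adhesion molecule of tight junctions, had 0.86 (adjusted p 0.168), with 4 of its 5 arrays at 75 mg/kg/day above all controls. Cldn5, the endothelial tight junction claudin, had 0.33, and Emcn (endomucin), a surface sialomucin, 0.51. Clec14a, a lectin-domain receptor of vessel sprouting, had a lower estimate at 75 mg/kg/day (0.31) than at 25 mg/kg/day (0.65). Plvap, the diaphragm protein of fenestrae and caveolae, had 0.35, 0.52 and 0.36, and all 5 arrays at 50 mg/kg/day lay above the controls. Pecam1 (CD31), a homophilic adhesion molecule, had estimates of -0.002, 0.24 and 0.23. Cd34 lay far below the reference, at -3.38 in control liver, with estimates of -0.23, -0.05 and 0.15. None of these 9 genes passed the adjusted test at any dose.

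Of the 13 receptor and signaling members, 10 had estimates above 0 at 75 mg/kg/day and the median was 0.43. The called gene was Rasip1, a Ras-interacting protein needed for vessel lumens and for tightening endothelial contacts. Its log2 ratio in the controls was 1.00, 0.87, 1.02, 0.99 and 0.75. It was 1.28, 1.48, 1.15, 1.16 and 1.16 at the low dose, 1.17, 1.40, 1.1, 1.13 and 1.19 at the middle dose, and 1.44, 1.71, 1.65, 1.54 and 1.67 at the high dose. All exposed arrays lay above all controls, and all 5 arrays at 75 mg/kg/day lay above all 5 at 50 mg/kg/day. Rasip1 was 1.60-fold higher at 75 mg/kg/day (log2 0.67, SE 0.09, limma adjusted p 0.00148). The estimates at 25 and 50 mg/kg/day were 0.32 (adjusted p 0.636) and 0.27 (adjusted p 0.676), and the adjusted p of the trend was 0.00602. In a model of the control and high-dose arrays without the other groups, the same estimates had adjusted p of 0.0563 for Rasip1 and 0.0848 for Icam2.

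The RefSeq sequence upstream of Rasip1 is shown because it is the only window held here for the 3 called members, and it lies at chr7:45627287-45627536 (GRCm38.p6, plus strand), 250 bases that end at the base before the gene's annotated start. Capitals mark GGAA, the core letters that ETS factors bind, or the same core read on the other strand, which is TTCC. The window held the core 5 times. It held no SOX core (ACAAT), no joint FOX and ETS motif (AACAGGAA, which contains the ETS core) and no GATA core (AGATAA) on either strand. These are letter matches and do not show binding.
Rasip1: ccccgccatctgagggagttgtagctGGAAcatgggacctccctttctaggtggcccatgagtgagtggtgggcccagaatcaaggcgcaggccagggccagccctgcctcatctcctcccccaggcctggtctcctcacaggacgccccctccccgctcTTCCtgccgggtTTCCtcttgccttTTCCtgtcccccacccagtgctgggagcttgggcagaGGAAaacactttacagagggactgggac

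Ushbp1, a protein named for binding the Usher syndrome protein harmonin, had all exposed arrays of each dose above all controls, with estimates of 0.47, 0.63 and 0.66. Its adjusted p at 75 mg/kg/day was 0.0755. Eng (endoglin), a coreceptor for BMP9 and related ligands, had estimates of 0.36, 0.58 and 0.55, with adjusted p 0.336 at 50 and 0.0894 at 75 mg/kg/day. Kdr (VEGFR2), the main signaling receptor for vascular endothelial growth factor, had 0.39, 0.31 and 0.58 (adjusted p 0.191 at 75 mg/kg/day). Flt1 (VEGFR1), which binds the same ligand, had -0.16, -0.16 and -0.04, and its second probe gave 0.01, -0.10 and 0.06. The angiopoietin receptor Tek (Tie2) had 0.11, -0.01 and -0.11, whereas its coreceptor Tie1 had 0.27, 0.36 and 0.55 (adjusted p 0.145 at 75 mg/kg/day). Robo4, a guidance receptor that stabilizes vessels, had 0.28, 0.41 and 0.46, and all 5 arrays at 75 mg/kg/day lay above the controls.

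Nos3, the endothelial nitric oxide synthase, had estimates of 0.21, 0.18 and 0.43. Ramp2 and Calcrl together form the adrenomedullin receptor, and their estimates went in different directions at the extremes of dose, at 0.16, 0.15 and 0.40 for Ramp2 and -0.42, 0.35 and -0.14 for Calcrl. The Calcrl ratio ran from 0.44 to 2.25 in the controls alone. Gimap4, a GTPase of the immunity-associated family, had 0.06, 0.20 and 0.10. The apelin receptor Aplnr had 0.01, -0.05 and 0.03, and its second probe gave 0.01, -0.07 and -0.08. Apart from Rasip1, none of the 13 passed the adjusted test at any dose.

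The transcription factor members did not share the positive median. Of the 5 present factors, 2 had estimates above 0 at 75 mg/kg/day, and the median was -0.03. Lmo2 and Tal1, with estimates below 0, also lay below the reference in control liver (-0.87 and -0.80). Role and level over the reference were not separated. Sox18 and Sox17, SOX factors of developing vessels, had estimates of 0.55, 0.47 and 0.78 (adjusted p 0.253 at 75 mg/kg/day) and 0.47, 0.18 and 0.28. Lmo2, an adaptor protein shared by endothelial and blood cells, had -0.35, -0.11 and -0.36, with an adjusted p of 0.224 at 75 mg/kg/day. Its 5 values there ran from -1.47 to -1.09, against -1.22 to -0.69 in the controls. Tal1, its helix-loop-helix partner, had -0.06, -0.05 and -0.03. Gata4, the GATA factor of sinusoidal endothelium, had -0.19, -0.11 and -0.06, and it was well above background in only 2 of 5 control arrays. None of the 5 passed the adjusted test.

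Of the 4 arterial, venous and central vein members, Notch4, a Notch receptor of arterial endothelium, passed the trend test. Its log2 ratio was 0.61, 0.38, 0.43, 0.84 and 0.43 in the controls and 0.71, 0.58, 0.65, 0.78 and 0.49 at 25 mg/kg/day. It was 0.97, 1.08, 0.95, 0.91 and 0.73 at the middle dose and 0.95, 1.31, 0.97, 0.98 and 0.92 at the high dose. The controls overlapped the 25 mg/kg/day arrays and 1 array at 50 mg/kg/day, and they lay below all arrays at 75 mg/kg/day. The trend was 0.18 (SE 0.03) per step of 25 mg/kg/day with a limma adjusted p of 0.0156, a call that was lost without control replicate 2, without control replicate 5 or without 75 mg/kg/day replicate 17, and also with the scanner software's own signals and with quantile normalized ratios. At the high dose the estimate was 0.49 (SE 0.10, adjusted p 0.0653), and those at 25 and 50 mg/kg/day were 0.11 and 0.39 (adjusted p 0.811 and 0.49).

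The Notch4 window is printed for the same reason, as the only other window held for a member past a test, at chr17:34564045-34564285 (GRCm38.p6, plus strand). It ends at the base before the annotated gene start, 241 bases in all, and held the ETS core 5 times (capitals) and none of the other 3 motifs.
Notch4: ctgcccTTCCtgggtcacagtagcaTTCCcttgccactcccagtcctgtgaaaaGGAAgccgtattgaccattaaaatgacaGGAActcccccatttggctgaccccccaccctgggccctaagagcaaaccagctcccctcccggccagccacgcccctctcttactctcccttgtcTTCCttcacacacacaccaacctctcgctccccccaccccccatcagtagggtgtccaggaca

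The letters GGAA are common. In windows of 250 bases, 20 of the 21 members with a window held them on either strand, as did 94.2% of 27025 genes (a gene with several starts counts once if any window holds the motif). For Notch4 these 250 bases ran past the annotated gene start, beyond the 241 bases printed above. ACAAT was held by 10 of the 21 members and 30.9% of genes. Notch4 was among the 10, through a match that took in bases at or after its annotated start, not printed here. AACAGGAA was held by 4 members (Calcrl, Egfl7, Emcn and Ushbp1) and 2.5% of genes, and AGATAA by 2 (Erg and Tal1) and 11.4%. No test was made of these shares.

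The remaining members of the arterial, venous and central vein group did not pass a test. Dll4, the Notch ligand of arterial and tip cells, had estimates of -0.07, 0.18 and 0.20, and it was well above background in 1 of 5 control arrays and 5 of 5 arrays at 75 mg/kg/day. Wnt2, a Wnt ligand made by liver endothelium, had 0.26, 0.31 and 0.62, with 3.16 to 4.45 in the controls against 3.94 to 4.63 at 75 mg/kg/day and an adjusted p of 0.237. Rspo3, the R-spondin of central vein endothelium that amplifies Wnt signaling, was not well above background in any control array and only in 2 of 5 arrays at 75 mg/kg/day.

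The size of the shift differed between slides. Slides 1, 2 and 3 each held 1 array of every group, so that an exposed liver could be set against a control on the same glass. At 75 mg/kg/day the median difference of the 35 members was 0.31 on slide 1, 0.54 on slide 2 and 0.09 on slide 3, with 27, 28 and 22 members above 0, beside medians of 0 over all present probes on each slide. At 50 mg/kg/day it was 0.23, 0.38 and 0.09 on these slides and 0.33 on slide 6, which held 2 arrays of either group. At 25 mg/kg/day it was -0.01, 0.29 and -0.11, with 17, 27 and 14 members above 0, so the positive median at the lowest dose was not seen on every slide. Within the 3 slides, Mmrn2 was higher at 75 mg/kg/day by 1.38, 1.51 and 1.03, Icam2 by 0.48, 1.43 and 0.53, Rasip1 by 0.72, 0.89 and 0.44 and Notch4 by 0.48, 0.54 and 0.34. The 50 mg/kg/day array that shared position 4 with the high dose had 5.55 for Mmrn2, 0.99 for Icam2 and 1.1 for Rasip1. The lowest high-dose values of these genes were 6.06, 1.00 and 1.44. For Notch4 that 50 mg/kg/day array (0.95) lay among the high-dose arrays. This is 1 array, and the part of position was not tested.

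The members' median also moved with how far liver lay above the reference. Most members had positive log2 ratios in control liver, from Pecam1 at 0.01 to Mmrn2 at 5.03, and only Cd34, Lmo2 and Tal1 among the 35 lay below 0. Over all present probes, those with a mean log2 ratio over 3 across the 20 arrays (1213 probes) had a median fold change of 0.27 at 75 mg/kg/day, and those under 0 (12914 probes) had -0.05. In the same classes, the 10 members over 3 had a median of 0.55 and the 3 members under 0 had -0.03. Between 0 and 1 the members' median was 0.15 (10 members) against 0.03 for all probes, between 1 and 2 it was 0.36 (8 members) against 0.09, and between 2 and 3 it was 0.72 (4 members) against 0.09. When the log2 ratios were quantile normalized between arrays, a setting chosen after seeing the data, all 5 class medians over all probes lay between -0.02 and 0.03 at 75 mg/kg/day. The members' median there was 0.09, 0.21 and 0.25 in order of dose, with 25, 28 and 29 of 35 above 0. In the liver channel alone, without the reference, it was 0.14, 0.26 and 0.33, with 26, 30 and 31 above 0. The 3 members called at 75 mg/kg/day were the same in both settings, while the trend of Notch4 was called in the liver channel alone and not in the quantile normalized ratios.

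**Figure D3:**
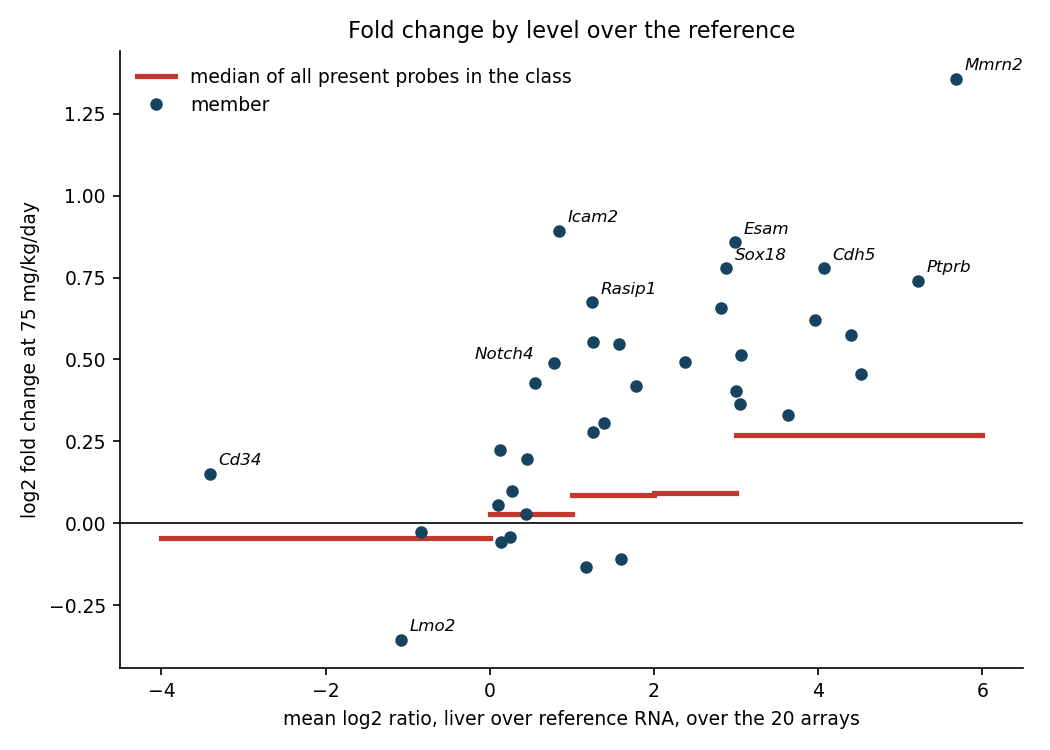
Log2 fold change at 75 mg/kg/day (y axis) against the mean log2 ratio of liver over reference across the 20 arrays (x axis). Points are the 35 members, and red lines are the medians of all present probes in 5 classes of that ratio, drawn over each class, from -0.05 under 0 to 0.27 over 3. Icam2 lay in the class between 0 and 1, where the median of all probes was 0.03, and Rasip1 in the next, where it was 0.09.

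Other lists of cell type genes gave the setting for these values. The endothelial genes outside the members lay lower against the reference, with a list mean of -0.25 in the controls against 1.54 for the members. Fold changes moved with that level, as described above, and the 2 lists were not compared at a like level. Of 43 tested endothelial genes outside the members, 21 had estimates above 0 at 25 mg/kg/day (median -0.01) and 31 at 50 mg/kg/day (median 0.11). At 75 mg/kg/day 28 did, with a median of 0.10, and 1 was called. This was Gpihbp1, the capillary anchor of lipoprotein lipase, at 0.76 (SE 0.14, limma adjusted p 0.0236), and the list's count of higher calls was 0 without control replicate 2 or 5 or without 75 mg/kg/day replicate 18 or 20. Unadjusted p was under 0.05 for 11 of the 43 higher and 2 lower. Klf2, a flow-responsive factor, had the largest estimate among them, at 0.95 with an SE of 1.67. All 8 tested scavenger genes of sinusoidal endothelium had estimates above 0 at each dose, with a median of 0.32 at 75 mg/kg/day, and Lyve1, the hyaluronan receptor, was called (2.23, SE 0.40, adjusted p 0.0189). The other 7 sinusoidal genes lay between 0.02 (Cd209b) and 0.46 (Fcgr2b). Of 12 tested ligands of the member receptors, 6 had estimates above 0, the median was 0 and 0 were called by limma (at an unadjusted p under 0.05, 0 higher and 1 lower, Slit2 at -0.87).

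Several lists of other cells also had positive medians. The 7 tested hepatocyte markers all had estimates above 0 at each dose, with a median of 0.44 at 75 mg/kg/day, and 0 were called by limma, the largest being Apoa1 at 0.49. At an unadjusted p under 0.05, 5 of the 7 were higher at this dose. These markers lie far above the reference, like the upper class of probes described above. The list mean of the hepatocyte markers ran from 4.31 to 5.54 in the controls and from 5.07 to 5.43 at 75 mg/kg/day. Of the 12 stellate cell and fibroblast markers, 9 had estimates above 0 and the median was 0.36 (largest Dcn, 0.80), and of the 11 Kupffer cell markers 9 did, with a median of 0.12 and 1 called, the scavenger receptor Marco (2.19, SE 0.30, adjusted p 0.00148). The 4 erythroid markers all had estimates above 0 at each dose, with a median of 0.30 at 75 mg/kg/day and 2 higher at an unadjusted p under 0.05. Of the 6 lymphatic endothelial markers, 4 had estimates above 0, with a median of 0.15, from -0.35 for Pdpn to 2.23 for Lyve1, which is also on the sinusoidal list and was the one called. The medians of the smooth muscle, bile duct, T cell and B cell markers lay between -0.10 and 0.03, and that of the neutrophil and megakaryocyte markers was 0.24, with no gene of these lists called. Single genes moved more, with Tff3 (bile duct) at 1.41 (limma adjusted p 0.123) and S100a9 (neutrophil) at 1.34 (adjusted p 0.188). At an unadjusted p under 0.05, 4 of the 8 neutrophil and megakaryocyte markers were higher and 0 lower. The same held for 4 stellate cell and fibroblast markers and 2 Kupffer cell markers, with 0 lower. For the bile duct markers it was 1 higher and 1 lower. The part of other cell types in the members' values was not tested.

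The mean log2 ratio of the 35 members was 1.54 ± 0.19 (SD, n = 5) in the controls, 1.75 ± 0.10 at 25, 1.81 ± 0.10 at 50 and 1.93 ± 0.19 at 75 mg/kg/day. The lowest array at 75 mg/kg/day (1.73) lay level with the highest control (1.73). Control replicate 2 was the lowest of all 20 arrays, at 1.27, and it was also the lowest control for the stellate cell markers (-1.34) and the sinusoidal genes (2.46).

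**Figure D4:**
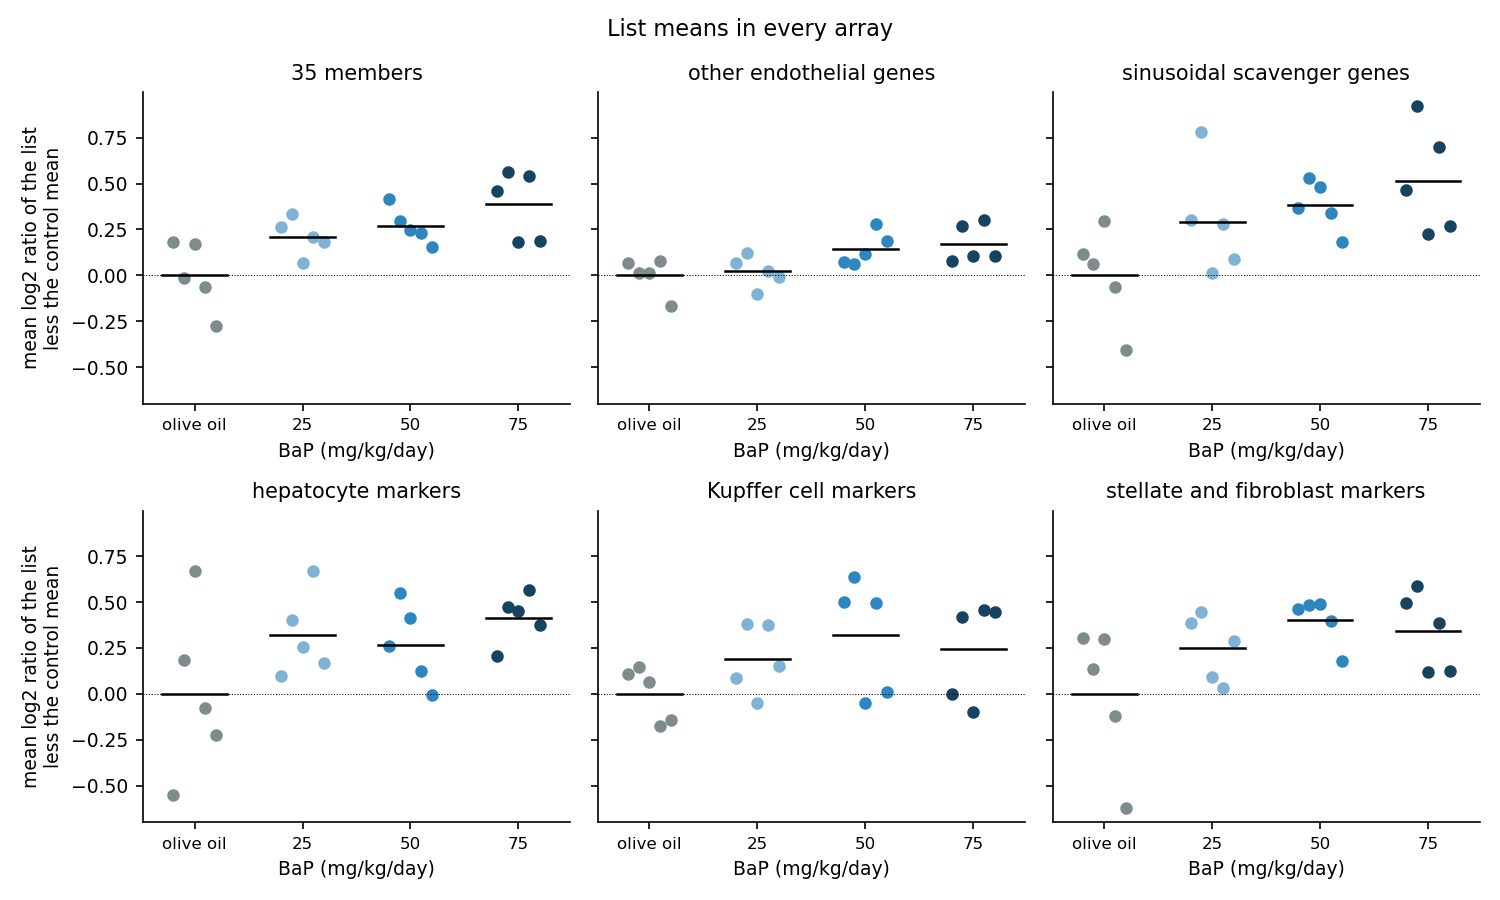
Mean log2 ratio of 6 gene lists in each array, less the mean of the 5 controls (y axis), by BaP dose (x axis, mg/kg/day). Each point is 1 array and the line is the group mean. The 35 members ran from 1.27 to 1.73 in the controls and from 1.73 to 2.11 at 75 mg/kg/day before the control mean was taken off, and the hepatocyte markers overlapped between groups.

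Within groups, the members were positively correlated on average. With group means removed, the mean Pearson correlation between members over the 20 arrays was 0.20, beside 0.006 over all present probes, and with slide means also removed it was 0.18 beside 0.003. Probes at a like level over the reference were not compared in this way. The arrays also share dye, slide and RNA input, so these correlations are a description. Cdh5 had the highest mean correlation with the other members (0.36), and Mmrn2 went most closely with Ptprb (0.88). Dll4 had the lowest (-0.12). The probes outside the list most like the mean of Mmrn2, Icam2 and Rasip1 over the 20 arrays were Ccnd1 (cyclin D1), Cox6b2, Otud7b, Tbx2 and Ltc4s (leukotriene C4 synthase), with r from 0.87 to 0.885. With group means removed their r ran from 0.24 for Ltc4s to 0.731 for Otud7b.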

How the data were processed

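Median spot and background intensities of the liver (Cyanine 5) and reference (Cyanine 3) channels were deposited by the authors as the scanner's Feature Extraction software (10.1.1.1 per the file headers) gave them. Per the labels and methods, the deposited log2 ratios were LOWESS normalized. Spot marks (other) gave well above background, saturated (0 spots) and outlier. The methods' Fs statistic and the removal of 1 unnamed sample were not repeated, and the lowest dose, 24 mg/kg in the series text, was taken as 25 mg/kg/day.

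Here intensities were background corrected by normexp (offset 50), loess normalized within arrays and averaged per probe (41174 probes) in R 4.3.3 with limma 3.58.1. Probes above the trimmed mean (5%) plus 3 trimmed SDs of 153 negative controls in at least 4 of 5 arrays of a group were present (27346). All 20 arrays entered 1 limma model. Each dose was contrasted with controls, and a second model took dose as a number. Calls at a dose needed an adjusted p under 0.05 (Benjamini-Hochberg) and a fold change over 1.5. Trend calls needed the adjusted p alone. A check on simulated data for 75 mg/kg/day against control recovered 181 of 200 changed probes among 27064, with 2 wrong calls. The share of real changes recovered among the members was not tested. Their median log2 fold change at this dose was 0.42, and their mean correlation with group means removed was 0.20. Recovery and wrong calls for genes with such values were not tested. Python 3.11.15 and matplotlib 3.10.9 drew figures.

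The members and lists were chosen with earlier results of these data known. The rule for named genes took every member, the called and largest-changing genes of other lists, Lyve1, and the 5 probes most like the called members. Alternatives covered background correction, normalization, filters, slide, samples, weights and probes. Precision is limited by the number of arrays, each from 1 animal. The p-values measure the spread between arrays, in which differences between animals, slides and hybridizations are not separated.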

Additional observations from a re-analysis of the deposited data

Results flagged for a closer look

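The 35 present members and their mean were looked at in each of the 4 groups, which gave 144 groups of 5 arrays. Of these, 7 had an array whose gap to its nearest neighbor was over 0.71 of the group's range. Chance alone gives about 7.2. In the controls, replicate 2 was low for Ptprb (3.53, next 4.89) and Ramp2 (2.31, next 2.85). At 25 mg/kg/day, replicate 10 was low for Kdr (4.03, next 4.55) and high for Wnt2 (4.02, next 3.90). At 50 mg/kg/day, replicate 13 was high for Rspo3 (0.20, next 0.02). At 75 mg/kg/day, replicate 16 was low for Rspo3 (-0.17, next 0.16), and replicate 17 was high for Notch4 (1.31, next 0.98). None of the 3 genes called at 75 mg/kg/day, Mmrn2, Icam2 and Rasip1, had such an array.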

How the results depend on the processing

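At 75 mg/kg/day, 3 members were called higher. From the scanner software's own processed signals 2 were called, without Rasip1 (log2 0.64, adjusted p 0.0585), and without background correction 4, with Ushbp1. With slide as a block 4 were called at 75 mg/kg/day, with Esam, and 1 at 50 mg/kg/day, Ushbp1. Without the low and middle dose arrays 1 was called, Mmrn2 (adjusted p 0.00772), as Icam2 and Rasip1 had adjusted p of 0.0848 and 0.0563. Over all probes, the calls higher at 75 mg/kg/day went from 36 to 56 with scanner signals and to 5 with the 2 groups alone. Leaving out each array in turn gave 3 to 5 members, 4 without control replicate 1 (adding Wnt2), 5 without control replicate 4 (adding Tie1 and Eng) and 5 without 75 mg/kg/day replicate 19 (adding Esam and Ushbp1). Mmrn2 was called in 31 of 31 settings, Icam2 in 30 and Rasip1 in 29. The members with a rising trend, 4, became 2 with scanner signals (without Rasip1 and Notch4), 3 in quantile normalized ratios (without Notch4) and 7 with slide as a block, and ran from 3 to 6 when an array was left out (lowest without control replicate 2 or 5 or 75 mg/kg/day replicate 17, highest without 75 mg/kg/day replicate 16 or 19). The other endothelial gene called at 75 mg/kg/day was lost (0) with the 2 groups alone and in quantile normalized ratios, 1 such gene was called lower with slide as a block, and leaving out an array gave 0 to 2 higher and 0 to 1 lower. The members' median at 75 mg/kg/day ran from 0.33 to 0.48 when an array was left out, and was 0.25 in quantile normalized ratios. Some estimates at 75 mg/kg/day changed sign, for genes that passed no test in those settings. With scanner signals these were Emcn (-0.109), Tal1 (0.009), Aplnr (-0.152) and Gimap4 (-0.031), and in the liver channel alone Flt1 (0.181), Tal1 (0.094), Aplnr (-0.009) and Calcrl (0.152). With slide as a block they were Tal1 (0.08) and Aplnr (-0.128), with array weights Aplnr (-0.03), with the mean of all probes Flt1 (0.011) and Aplnr (-0.027), and in quantile normalized ratios Tal1 (0.011) and Aplnr (-0.018). When an array was left out, those with sign changes ranged from -0.284 to 0.075 (Flt1), -0.252 to 0.032 (Tek), -0.333 to 0.122 (Calcrl), -0.181 to 0.089 (Tal1) and -0.061 to 0.147 (Aplnr). The cause of these changes was not tested. Animals were not paired, as the groups share no replicate numbers, and no paired test was made. The slides they share entered as the block above instead.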
